A study of Arabidopsis thaliana with 8 samples.

Results

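The comparison described here is that of gbf1 mutant seedlings with wild-type seedlings of Arabidopsis thaliana. It was made by taking the 2 arrays labelled gbf1 mutant and the 2 arrays labelled wild type (Col-0), 4 of the 8 arrays of the series, and all 22746 of the 22810 probe sets that are not AFFX controls. The tested genotype, gbf1, carries a mutation of GBF1 alone, and the other two mutants of the series, gbf1 hy5 and gbf1 hyh, carry it together with a mutation of HY5 or HYH. Seedlings of all 4 genotypes were harvested whole at an age of 4 days. Plates, which held 1% sucrose, had first spent 4 days at 4 °C and were then kept at 22 °C under constant white light (20 micromol per m2 and s). Each array held RNA of a separate biological replicate, per the labels. The gbf1 allele is not given in the sources used here, and an ecotype is stated for wild type alone, so the mutation and any difference of background cannot be told apart.

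GBF1 is a bZIP transcription factor that binds the G-box, a promoter element found in many light-regulated genes. HY5 and HYH are bZIP factors of the same light response, and GBF1 can pair with both. In seedlings GBF1 is known to restrain some light responses and to promote others. The comparison with wild type asks which transcripts differ when GBF1 alone is mutated.

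The values are log2 signals relative to the median of each probe set over the 8 arrays, so a value of 0 is the middle of the series and no value gives an absolute expression level. A difference is the gbf1 mean minus the wild-type mean on that log2 scale, with 2 arrays of each genotype. Its standard error (SE) comes from the limma fit, in which the spread is shared over all 8 arrays and moderated across probe sets. A probe set was called, and is said to have risen or fallen, where its limma test adjusted over all 22746 probe sets gave p under 0.05. The probe table ties no probe set to GBF1 alone, so the transcript of the mutated gene could not be checked by name. Whether a probe set without a gene in that table measures that transcript was not tested. The spread between replicates was wider in gbf1, with an SD of the replicate difference of 0.366, than in wild type, with 0.236. The hybridisation-control probe sets averaged -0.33 and 1.79 on the gbf1 arrays, against -0.19 and 0.27 on the wild-type arrays. A like value, 1.499, was found on gbf1 hyh replicate 2, so 2 of the 8 arrays had raised controls. The 3′ minus 5′ signal of the housekeeping controls was 0.30 and -0.29 in gbf1, against 0.59 and -0.16 in wild type.

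Few transcripts were called in gbf1. The genes that rose included the root-hair expansin gene EXPA18, the endoglucanase gene GH9C1 and 5 of 55 measured class III peroxidase genes. The genes that fell included QQS, which is linked to starch, COR15B, which responds to cold, and BCAT4, which acts in glucosinolate synthesis. In all, 95 of 22746 probe sets (0.418%) were called by limma, 51 higher in gbf1 (0.224%) and 44 lower (0.193%). Before adjustment, 1988 probe sets (8.74%) had p under 0.05. The called rises had a median of 1.65 and the called falls a median of -1.29, while the median of all probe sets was 0.01. A difference of at least 4-fold was reached by 18 of the called rises and 7 of the called falls. In each of the 95 called probe sets both gbf1 arrays lay on one side of both wild-type arrays, which held for 36.8% of all probe sets. The probe table tied 48 of the 95 to 1 gene, 23 higher and 25 lower, and 46 to none. The count rested on each of several arrays. Without wild type replicate 1 there were 9 calls, without wild type replicate 2 there were 10, and without gbf1 replicate 2 there were 43, of which 38 were among the 95. Without either gbf1 hy5 array, which enters through the shared estimate of spread, there were 41. Of the 48 calls tied to 1 gene, 44 did not pass when the first wild-type array was left out and 44 when the second was. With gbf1 replicate 2 left out 27 did not pass, and with gbf1 replicate 1 left out 17. QQS, AT5G04380 and EXPA18 were the 3 that passed with any single array of the 8 left out.

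**Figure D1:**
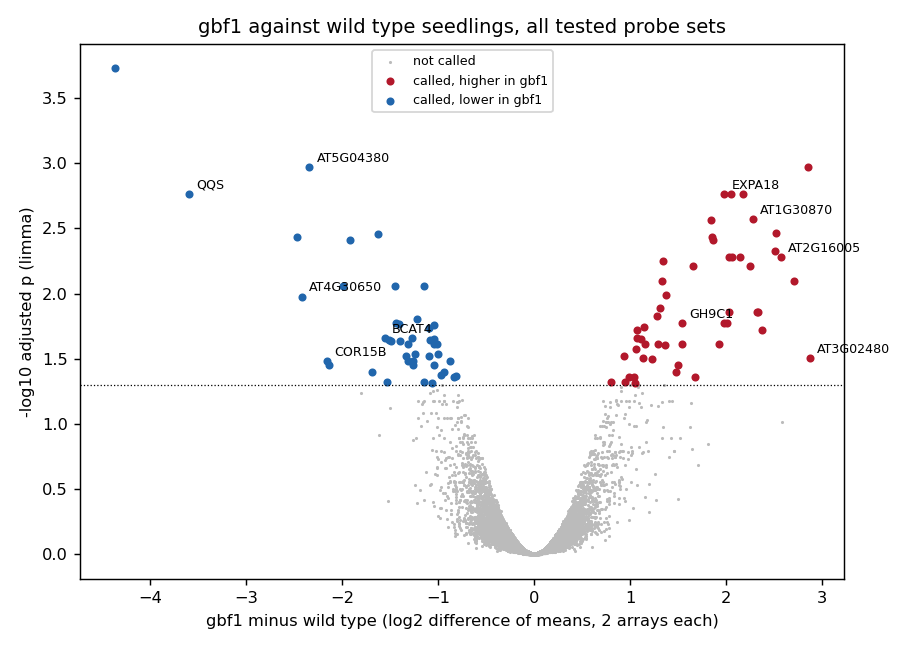
Each point is 1 of 22746 probe sets, with the log2 difference of gbf1 minus wild type (2 arrays each) on the horizontal axis and -log10 of the limma adjusted p on the vertical axis, and the dotted line at an adjusted p of 0.05. The 51 called rises (red) and 44 called falls (blue) lie at both ends, with QQS furthest to the left among the probe sets tied to 1 gene.

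Root hairs are outgrowths of epidermal cells whose tips extend by loosening and rebuilding the cell wall, a process served by expansins, glycoside hydrolases, extensins and apoplastic peroxidases. Of 37 root-hair genes listed, 7 could be measured by a probe set tied to them alone, and 5 of these rose in gbf1 (71.4%, against 0.224% of all probe sets), with a median of 1.98 over the 7. EXPA18, an expansin of root hairs, had signals of 1.37 and 1.41 in gbf1, against -0.50 and -0.68 in wild type. That is a rise of 1.98 (SE 0.161, adjusted p = 0.00173 in limma), about 3.96-fold, and the groups lay far apart relative to their replicates. GH9C1, an endoglucanase gene of the glycosyl hydrolase family GH9, was at 1.34 and 0.93 in gbf1, against -0.23 and -0.60 in wild type, and rose by 1.55 (SE 0.202, adjusted p = 0.0168). The peroxidase genes AT1G30870, AT3G49960 and AT4G26010 made up the rest of the 5. EXPA7, the other root-hair expansin measured, was at 0.76 and 1.38 in gbf1, against -0.33 and 0.11 in wild type. The groups did not overlap, as in 36.8% of all probe sets, and its difference of 1.18 (SE 0.235) did not pass (adjusted p = 0.0933). XTH26, a xyloglucan-modifying enzyme gene, differed by 0.52 without passing (adjusted p = 0.407). EXPA18, GH9C1, AT1G30870 and AT3G49960 were known to be higher in gbf1 when the list was written, while AT4G26010 was not. As the list was chosen with earlier results of these data known, its count is not independent evidence for any of the 5. The count was 1 without either wild-type array, that gene being EXPA18, and 4 without gbf1 replicate 2. In whole seedlings, more root-hair cells and more transcript per cell cannot be told apart. No member of the lists for root endodermis with suberin, vascular tissue, seed or leaf mesophyll had a probe set of its own, and the 3 guard-cell genes measured differed by -0.16 to 0.06.

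Class III peroxidases are secreted haem enzymes that cross-link or loosen wall polymers with hydrogen peroxide. Of the 73 genes of the family listed, 55 were measured, 5 rose (9.09%, against 0.224% of all probe sets), none fell and the other 50 did not pass. The family's median difference was 0.12, against 0.01 for all probe sets, and 41 of the 55 values were above 0. AT1G30870 had signals of 1.63 and 2.21 in gbf1, against -0.39 and -0.34 in wild type, and rose by 2.28 (SE 0.197, adjusted p = 0.0027). AT3G49960 was at 1.61 and 2.23 in gbf1, against -0.51 and -0.14 in wild type, and rose by 2.25 (SE 0.243, adjusted p = 0.00615). In both genes gbf1 replicate 2 was the higher of the gbf1 arrays. AT1G34510 was at 1.13 and 1.64 in gbf1, against -0.50 and -0.80 in wild type, and rose by 2.04 (SE 0.213, adjusted p = 0.00528). AT4G26010 was at 1.06 and 1.49 in gbf1, against -0.50 and -0.92 in wild type, and rose by 1.98 (SE 0.260, adjusted p = 0.0169). AT5G17820 showed the smallest of these rises, 1.32 (SE 0.162, adjusted p = 0.0129), with 0.63 and 0.81 in gbf1, against -0.65 and -0.56 in wild type. None of the other 50 reached 1 on the log2 scale. AT5G39580 came closest, at 0.23 and 0.00 in gbf1, against -0.65 and -0.83 in wild type, a difference of 0.85 that did not pass (adjusted p = 0.203). The lowest value was -0.43, in AT4G33420. The count of 5 was 3 without gbf1 replicate 2 and 0 without either wild-type array.

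Other genes for wall and secreted proteins were also among the largest rises. AT5G04960, a pectin methylesterase gene of the cell wall, was at 1.42 and 1.98 in gbf1, against -0.38 and -0.51 in wild type, and rose by 2.15 (SE 0.221, adjusted p = 0.00528). AT4G25790 and AT4G33730 encode small secreted proteins of the CAP family, to which the defence protein PR-1 belongs. AT4G25790 was at 1.42 and 1.21 in gbf1, against -0.69 and -0.38 in wild type, and rose by 1.85 (SE 0.163, adjusted p = 0.00274). AT4G33730 was at 0.98 and 1.27 in gbf1, against -0.62 and -0.44 in wild type, and rose by 1.65 (SE 0.178, adjusted p = 0.00615). Of the 19 CAP genes measured, these 2 rose (10.5%, against 0.224% of all probe sets), 17 did not pass and the median was 0.12. AT4G01700, a chitinase-family gene, rose by 1.68 (SE 0.275, adjusted p = 0.0434), with gbf1 arrays at 0.90 and 1.82, against -0.18 and -0.46 in wild type. CAP genes are 1 of 19 families or sets, among them the expansin, GH9, XTH, SABATH and LEA genes, that were added after values were seen.

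**Figure D2:**
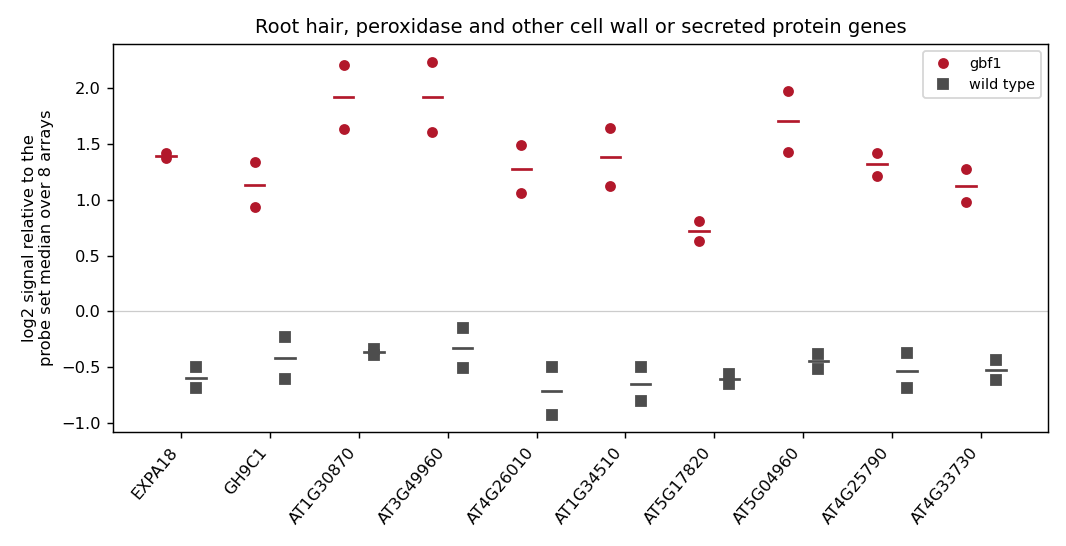
Log2 signals, relative to the median of each probe set over the 8 arrays, of 10 called genes for root-hair, peroxidase and other wall or secreted proteins. Points are single arrays and bars are means, with gbf1 (red circles) left of wild type (grey squares) for each gene, and every gbf1 array lies above every wild-type array.

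Most measured expansin and GH9 genes did not pass. Among 18 expansin genes measured, EXPA18 rose (5.56%, against 0.224% of all probe sets) and the expansin-like gene EXLA3 fell (5.56%, against 0.193%). The fall of EXLA3 was 0.97 (SE 0.157, adjusted p = 0.042). The other 16 did not pass, and the median of the 18 was 0.04. EXLA3, named after its values were seen, was at 0.06 and 0.17 in gbf1, against 0.95 and 1.23 in wild type. Of 15 GH9 genes, GH9C1 rose (6.67%, against 0.224% of all probe sets) and 14 did not pass. None of the 9 XTH genes measured, found by symbol, passed, with a median of 0.44 and XTH32 highest at 0.65. Members of that family without such a symbol or a probe set of their own were not counted. AT1G62770 and AT5G62360 encode proteins of the invertase and pectin methylesterase inhibitor family, whose other members were not counted here. AT1G62770 was at -0.62 and -0.30 in gbf1, against 0.59 and 1.12 in wild type, and fell by 1.31 (SE 0.202, adjusted p = 0.0329). AT5G62360 was at -1.20 and -1.66 in gbf1, against -0.20 and -0.11 in wild type, and fell by 1.28 (SE 0.177, adjusted p = 0.0219).

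Late embryogenesis abundant (LEA) and cold-response genes split between rises and falls. LEA proteins protect cells from drying, and COR15 proteins stabilise chloroplast membranes in the cold. Of 30 cold and abscisic acid genes listed, 8 were measured. Of these 1 rose (12.5%, against 0.224% of all probe sets), 2 fell (25%, against 0.193%) and 5 did not pass, with a median of -0.08. AT3G02480, a LEA-family gene, was at 1.62 and 0.57 in gbf1, against -1.51 and -2.05 in wild type. Its rise of 2.87 (SE 0.437, adjusted p = 0.0312) was the largest among probe sets tied to 1 gene, and its gbf1 arrays lay further apart than those of wild type. AT2G46140, listed as LEA27 and named after its values were seen, rose by 1.38 (SE 0.163, adjusted p = 0.0103). LEA4-5 was at 1.26 and 0.25 in gbf1, against -0.71 and -0.62 in wild type, and its difference of 1.42 did not pass (adjusted p = 0.129). The LEA4-5 arrays did not overlap between genotypes, as in 36.8% of all probe sets, and gbf1 replicate 1 was the higher gbf1 array.

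COR15B was at -1.61 and -0.82 in gbf1, against 1.18 and 0.71 in wild type, and fell by 2.16 (SE 0.334, adjusted p = 0.0331). Its close copy COR15A was at -0.14 and -0.18 in gbf1, against -0.10 and -0.10 in wild type, a difference of -0.06. Cross-hybridisation between such copies was not tested. AT4G30650 encodes a small membrane protein related to the salt- and cold-induced RCI2 proteins. It was at -1.70 and -2.69 in gbf1, against 0.28 and 0.17 in wild type, and fell by 2.42 (SE 0.289, adjusted p = 0.0106). Its relative AT4G30660 was also lower on both gbf1 arrays (-0.77 and -0.95, against 0.25 and 0.02 in wild type), but its difference of -0.99 did not pass (adjusted p = 0.0671). COR47 differed by -0.10. AT4G33980, a cold-regulated gene, fell by 1.53 (SE 0.256, adjusted p = 0.0479), with -1.34 and -1.73 in gbf1, against -0.04 and 0.04 in wild type. COR15B, AT4G30650 and AT3G02480 were known to differ when this list was written. With 1 wild-type array left out, whichever it was, none of the 8 was called. Without gbf1 replicate 1, or without either gbf1 hy5 array, AT4G30650 alone was called, and without gbf1 replicate 2 LEA4-5 was called as well.

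QQS, a short gene known from Arabidopsis thaliana alone that affects leaf starch content, showed the largest fall among probe sets tied to 1 gene. Its signals were 0.36 and 0.17 in gbf1, against 4.40 and 3.33 in wild type. It fell by 3.601 (SE 0.286, adjusted p = 0.00173), about 12.1-fold, which was far larger than the gap between the wild-type arrays. Of the other 3 starch genes measured, none passed. PWD (AT5G26570), a starch-phosphorylating enzyme gene, differed by -1.23 (SE 0.268, adjusted p = 0.129), DPE1, which disproportionates maltodextrins, by -0.94 (adjusted p = 0.339), and SBE2.2, a branching enzyme gene, by 0.00. For PWD and DPE1 gbf1 replicate 2 was the lower gbf1 array, at -1.51 and -1.43.

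BCAT4 acts at the entry of methionine into aliphatic glucosinolate synthesis. It was at -0.93 and -0.69 in gbf1, against 0.80 and 0.69 in wild type, and fell by 1.56 (SE 0.216, adjusted p = 0.022). The groups lay well apart, but BCAT4 did not pass when any 1 of these 4 arrays, or a gbf1 hy5 array, was left out. None of the other 4 glucosinolate genes measured passed. GSTU20, a glutathione transferase gene of the same pathway, was lower on both gbf1 arrays (-0.37 and -0.70, against 0.37 and 0.67 in wild type), with a difference of -1.05 (adjusted p = 0.127). UGT74B1, which adds the glucose, differed by -0.06.

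Methyltransferases of the SABATH family methylate small carboxylic acids, among them plant hormones. Of 16 measured, 2 fell (12.5%, against 0.193% of all probe sets) and 14 did not pass. AT5G04380 was at -0.21 and 0.05 in gbf1, against 2.37 and 2.15 in wild type, and fell by 2.34 (SE 0.156, adjusted p = 0.00108). AT5G38020 was at -0.61 and -0.26 in gbf1, against 0.53 and 0.88 in wild type, and fell by 1.14 (SE 0.190, adjusted p = 0.0477). The JMT and BSMT1 genes, which act on jasmonate and on benzoate with salicylate, differed by 0.14 and 0.11.

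Further large falls belonged to no listed group. AT4G16146 was at -1.72 and -2.16 in gbf1, against 0.02 and -0.06 in wild type, and fell by 1.92 (SE 0.187, adjusted p = 0.00391). AT3G62550, a gene of the universal stress protein family, was at -1.32 and -1.51 in gbf1, against 0.20 and 0.22 in wild type, and fell by 1.63 (SE 0.150, adjusted p = 0.00347). The wild-type arrays agreed closely for both genes. AT1G12080 averaged -1.35 in gbf1, against 0.05 in wild type, and also fell (adjusted p = 0.017). AT2G40960 fell by 1.51 (adjusted p = 0.0227), the jacalin-lectin family gene AT5G35940 by 1.24 (adjusted p = 0.0292) and AT4G32340 by 1.15 (adjusted p = 0.00872). Among called probe sets with no gene in the probe table, 246211_at fell most, with 0.13 and -0.29 in gbf1, against 4.196 and 4.38 in wild type. It fell by 4.37 (SE 0.220, adjusted p = 0.000188). In limma it also differed from wild type by -4.48 in gbf1 hy5 (adjusted p = 3.25e-05) and -4.19 in gbf1 hyh (adjusted p = 3.01e-05). Its gene is not given, so a transcript of the mutated gene and one that responds to the mutation cannot be told apart. The largest rise among called probe sets with no gene was 2.85 (SE 0.199, adjusted p = 0.00108) in 246991_at. Its signals were 1.67 and 2.26 in gbf1, against -0.98 and -0.80 in wild type.

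**Figure D3:**
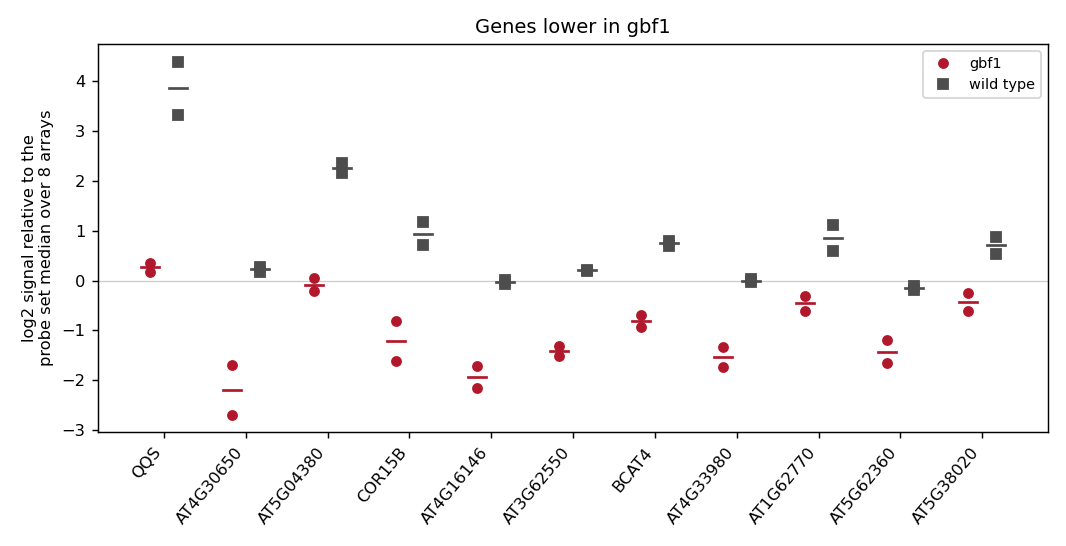
Log2 signals, relative to the median of each probe set over the 8 arrays, of 11 called genes that were lower in gbf1. Points are single arrays and bars are means, with gbf1 (red circles) left of wild type (grey squares), and QQS shows the widest gap (0.36 and 0.17 in gbf1, against 4.40 and 3.33 in wild type).

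Large rises outside these groups included genes for lipid-binding and degradative enzymes. AT2G16005, of the MD-2-related lipid-recognition family, was at 0.53 and 0.03 in gbf1, against -2.25 and -2.34 in wild type, and rose by 2.58 (SE 0.268, adjusted p = 0.00528). AT1G14960, of the polyketide cyclase and lipid transport family, was at 0.98 and 1.68 in gbf1, against -0.63 and -1.37 in wild type, and rose by 2.33 (SE 0.289, adjusted p = 0.0138). AT1G29090, a papain-type cysteine protease gene, was at 0.02 and 0.09 in gbf1, against -1.74 and -2.27 in wild type, and rose by 2.06 (SE 0.215, adjusted p = 0.00528). In these genes the replicates lay closer to each other than to the other genotype. The cytochrome P450 gene AT3G44970 was at 2.37 and 2.23 in gbf1, against 0.57 and 0.32 in wild type, and rose by 1.86 (SE 0.177, adjusted p = 0.0037).

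Groups linked to light, pigments, hormones and nutrition held no called gene in limma. Together with the guard-cell genes they had 38 measured members, of which 11 had an unadjusted p under 0.05 (28.9%, against 8.74% of all probe sets). The lists were chosen with earlier results of these data known, so this share is not independent evidence. In these lists the measured members were few, so the counts do not extend to the members without a probe set of their own. HYH was at 1.69 and 1.94 in gbf1, against 1.08 and 0.85 in wild type, and its difference of 0.85 did not pass (adjusted p = 0.0853). The clock gene GI was at -0.37 and -0.88 in gbf1, against 0.36 and 0.44 in wild type, a difference of -1.02 (adjusted p = 0.161). Both genes had arrays that did not overlap between genotypes, which held for 36.8% of all probe sets. Of 3 light-harvesting genes the furthest from 0 was LHCB4.3, at 0.81 (adjusted p = 0.0966), and of 9 chlorophyll synthesis genes PORB, the light-dependent protochlorophyllide reductase, at -0.82 (adjusted p = 0.102). Of 8 flavonoid genes it was AT1G06000, at 0.44, and of 5 auxin genes GH3.17, which conjugates auxin to an amino acid, at 0.53. The thionin gene AT1G66100, at -0.73, was furthest among 3 salicylic acid, jasmonate and senescence genes, and AT3G13610, which acts in coumarin synthesis, at -0.50 among 4 nutrition genes. The list medians ran between -0.11 for the nutrition and the salicylic acid, jasmonate and senescence lists and 0.39 for the light-harvesting list.

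**Figure D4:**
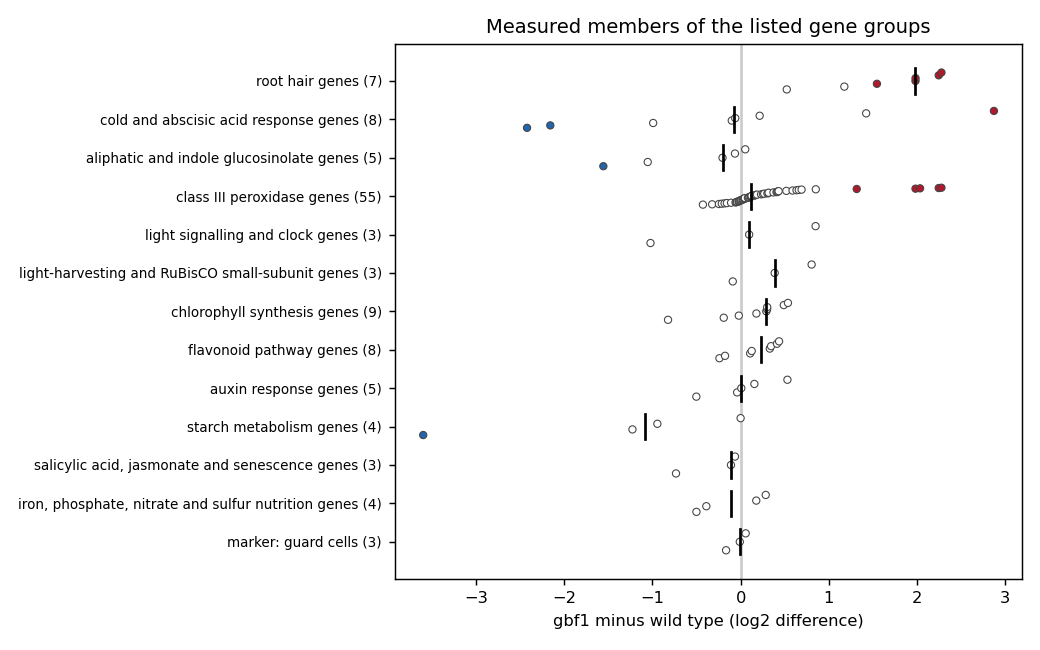
Log2 difference of gbf1 minus wild type for each measured member of 13 gene lists, with the number measured in brackets. Filled points are called rises (red) and falls (blue), open points did not pass, and black bars are list medians. Root hair genes lie furthest to the right, with a median of 1.98.

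Among families counted by symbol, 12 sets with 238 genes in all held no called member, and their medians lay between -0.07 and 0.44. Of the 238 genes, 32 had an unadjusted p under 0.05 (13.4%, against 8.74% of all probe sets). These sets were added after values were seen, so this share is not independent evidence either. The 12 sets included 47 UGT glycosyltransferase, 29 SCPL, 23 cytochrome P450 (by CYP symbol), 20 BGLU, 14 bZIP and 14 SWEET genes. The cytochrome P450 set leaves out genes named by locus alone, among them AT3G44970, which rose. Of 69 plastid-encoded genes 1 fell (1.45%, against 0.193% of all probe sets). It was ndhJ of the NADH dehydrogenase-like complex, which fell by 1.06 (SE 0.178, adjusted p = 0.0481). The median of the 69 was -0.07. Of 15 IQD genes, whose proteins bind calmodulin, 1 fell (6.67%, against 0.193% of all probe sets), IQD22 by 1.05 (adjusted p = 0.0353). Both were named after their values were seen.

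GBF1 lies on chromosome 4 in the reference gene order. Of the 10 measured genes nearest to it on each side, none was called by limma, where 0.418% of all probe sets were, and 3 had an unadjusted p under 0.05, where 8.74% of all did. These neighbours had differences between -0.37 and 1.44 and a lowest adjusted p of 0.0667. The called genes with 1 nuclear locus lay on all 5 chromosomes. Their share of the measured genes was highest on chromosome 4, at 0.517% (10 of 1935). It was 0.322% on chromosome 1 (11 of 3411), 0.323% on chromosome 2 (7 of 2169), 0.368% on chromosome 3 and 0.302% on chromosome 5. A difference between chromosomes was not tested. No pair of these called genes lay within 20 genes of each other.

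Both double mutants carry the gbf1 mutation too, and their comparisons with wild type share the wild-type arrays with that of gbf1, so the values are set side by side without a test between them. Those comparisons called 495 probe sets (2.18%) for gbf1 hy5 and 292 (1.28%) for gbf1 hyh. QQS differed from wild type by -3.601 in gbf1, -4.28 in gbf1 hy5 and -4.04 in gbf1 hyh. AT5G04380 differed by -2.34, -2.36 and -2.22 in the same order of genotypes, and AT2G16005 by 2.58, 2.56 and 1.95. These 3 genes were called in each of the 3 comparisons. For genes of the root-hair list the values were as follows. EXPA18 differed by 1.98 in gbf1, 0.27 in gbf1 hy5 (adjusted p = 0.613) and 1.08 in gbf1 hyh (adjusted p = 0.0146). AT1G30870 differed by 2.28, -0.17 and 0.80, and AT3G49960 by 2.25, -0.04 and 0.72, and neither gene passed in the double mutants. The median of the 7 root-hair genes was 1.98 in gbf1, -0.04 in gbf1 hy5 and 0.74 in gbf1 hyh.

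AT4G16146 differed by -1.92 in gbf1, 0.20 in gbf1 hy5 and 0.14 in gbf1 hyh, and AT4G30650 by -2.42, -0.45 and 0.13, and neither passed in a double mutant. BCAT4 differed by -1.56 in gbf1, 0.82 in gbf1 hy5 (adjusted p = 0.109) and -2.46 in gbf1 hyh (adjusted p = 0.000738). AT3G44970 rose by 1.86 in gbf1 and fell in both double mutants, by 1.15 in gbf1 hy5 (adjusted p = 0.0122) and by 0.97 in gbf1 hyh (adjusted p = 0.0369). Of the 51 probe sets called higher in gbf1, 28 were called in neither double mutant, and of the 44 called lower, 21. In both double mutants, 3 of the 51 and 8 of the 44 were called in the same direction as in gbf1. Called in the opposite direction in both were 4 of the 51 and 1 of the 44. Others of the 51 and of the 44 were called in the opposite direction in 1 double mutant only. The difference between gbf1 and each double mutant was not tested here.

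**Figure D5:**
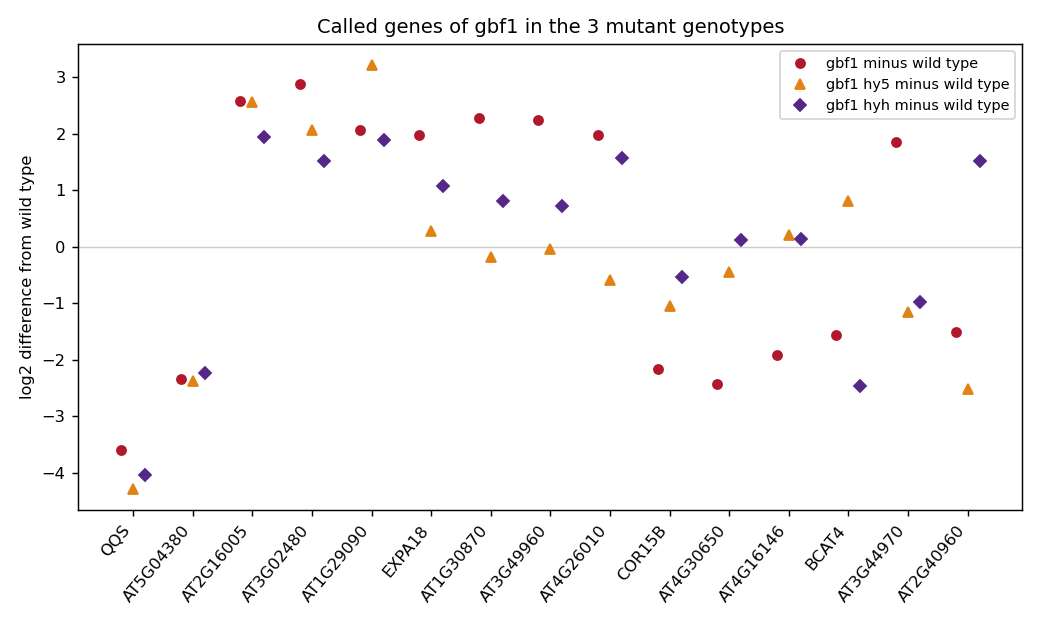
Log2 difference from wild type of 15 genes called in gbf1, in gbf1 (red circles), gbf1 hy5 (orange triangles) and gbf1 hyh (purple diamonds), each from 2 mutant and 2 shared wild-type arrays. QQS and AT5G04380 lie at like values in the 3 genotypes, while AT1G30870, AT3G49960 and AT4G16146 lie near 0 in gbf1 hy5.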

How the data were processed

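Affymetrix arrays of 3′ IVT-labelled RNA were processed by the authors in GeneSpring with the RMA algorithm, per the series design text and the submitters' processing notes. The deposited log2 values (base not stated, taken from RMA's usual output) have a median of 0 over the 8 arrays in every probe set, within 5e-07. Genes were named from GEO's platform annotation and a RefSeq table of TAIR10.1. Of 22746 probe sets tested, 13513 had 1 gene, 503 several and 8730 none, and 11933 of the first had only a locus name, whose protein family is given as background knowledge.

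The fit in limma 3.58.1 under R 4.3.3 used the 8 arrays as 4 genotype means, without a replicate block (4 residual and 5.12 prior degrees of freedom), with Benjamini-Hochberg adjustment over all probe sets and a threshold of 0.05. The fit was tested on simulated data. Precision is limited by the small number of arrays. Gene lists are described by counts and medians, with 1 probe set per gene, without a set test. Of 431 genes on the 17 lists, 114 were measured by a probe set tied to them alone, and 4 lists held none of these. The members and lists were chosen with earlier results of these data known.

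Named genes were HYH, the 15 largest called rises and 15 largest called falls with 1 gene, up to 4 called members of a list or else the member furthest from 0, called genes sharing a list or family, and the largest rise and fall without a gene. Alternatives were another set of arrays, quantile normalisation, a trended robust prior, array weights, a replicate block, a hybridisation-control covariate and left-out arrays. A planned count of promoter motifs was not made here.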

Additional observations from a re-analysis of the deposited data

Results flagged for a closer look

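The hybridisation-control probe sets, which lie outside the measurement of seedling RNA, averaged 1.79 on gbf1 replicate 2, above both wild-type arrays (-0.19 and 0.27). The other gbf1 array was at -0.33. Of the remaining arrays, gbf1 hyh replicate 2 was also raised, at 1.499, while gbf1 hyh replicate 1 was at -0.52 and the gbf1 hy5 arrays at -0.15 and 0.11. Whether these raised controls bear on any result was not tested beyond the fits without these arrays and with the controls as a covariate.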

How the results depend on the processing

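None of the 50 called genes and probe sets followed by name changed sign under an alternative, but few alternatives could change one. In every call both gbf1 arrays lay on one side of both wild-type arrays, so leaving out or weighting arrays could not. The 4-array fit, the trended robust prior and the replicate block left the difference itself unchanged. Only quantile normalisation and the control covariate could have reversed a sign. Of 25 named genes that were not called, 3 with differences near 0 changed sign. COR47 (-0.10) was at 0.054 after quantile normalisation, 0.014 with the control covariate, -0.40 without gbf1 replicate 1, and 0.20 without gbf1 replicate 2 or without both arrays of high control signal (gbf1 replicate 2 and gbf1 hyh replicate 2). UGT74B1 (-0.06) was at 0.10 with the covariate, -0.31 without gbf1 replicate 1, 0.17 with wild type replicate 1 left out, and 0.18 without gbf1 replicate 2 or without both arrays. SBE2.2 (0.00) was at -0.10 after quantile normalisation, -0.13 with wild type replicate 2 left out, -0.22 without gbf1 replicate 1 and 0.22 without gbf1 replicate 2. Of the 25, 9 passed under at least 1 alternative. The 95 called probe sets (51 higher, 44 lower) became 36 (23 and 13, with 34 shared) in a fit of the 4 gbf1 and wild-type arrays alone, 149 (77 and 72) after quantile normalisation, 61 (38 and 23) under the trended robust prior, 91 with weighted arrays, and 181 (98 and 83) with the hybridisation controls as a covariate. The 85 called at 2-fold or more became 36 and 128 in the first 2 of these. With 1 array left out, the calls ranged from 9 to 138, those at 2-fold or more from 9 to 135, rises from 6 to 68 and falls from 3 to 70, and the falls outnumbered the rises (70 against 68) without gbf1 replicate 1. Without both arrays of high hybridisation-control signal there were 134 calls (81 and 53). The settings for gene lists other than the 4-array fit and quantile normalisation were chosen after seeing the data. With 1 array left out, called genes ranged from 1 to 6 for root hair rises, 0 to 5 for peroxidase rises, 0 to 2 for cold and abscisic acid rises, 0 to 3 for falls of that list, 0 to 1 for glucosinolate falls and 1 to 2 for starch falls. In the 4-array fit the cold list had 0 rises and 0 falls. Quantile normalisation gave 2 rises and 1 fall in the cold list, where the falls had been more numerous, 2 glucosinolate falls, 2 starch falls and 1 light-harvesting rise. The covariate gave 2 cold rises, 2 starch falls, 1 light and clock fall and 1 chlorophyll synthesis fall. Without both arrays of high control signal there were 2 cold rises and 2 starch falls. The cause of these changes was not tested, beyond the fewer arrays in some fits. With the replicate number as a block there were 120 calls (65 and 55), which is not used as the main result because the deviations of same-numbered arrays correlated at 0.0917 between gbf1 and wild type and between -0.11 and 0.34 over the 6 pairs of genotypes, so not every pair was above 0.1. Array controls did differ by number in all 4 genotypes. The poly-A controls averaged -0.23 to -0.01 on the arrays numbered 1 and 0.16 to 0.23 on those numbered 2, and the housekeeping 3′ minus 5′ signal was higher on number 1 in each genotype. A shared handling of same-numbered arrays was not tested further. Values centred per probe set give no signal over background, so no filter on dim probe sets was possible. The planned count of promoter motifs was not run.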

Other observations

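Other genes called in gbf1, picked here after their values were seen, lay outside the groups described. ZW9 was at 0.79 and 0.99 in gbf1, against -0.39 and -0.15 in wild type, and rose by 1.16 (limma adjusted p = 0.0245), while in gbf1 hyh it differed from wild type by -4.11 (adjusted p = 1.31e-05). AT1G55960, of a lipid-binding START-type family, rose by 1.28 in gbf1 (adjusted p = 0.0149) and differed by -1.59 in gbf1 hyh (adjusted p = 0.00168). The cyclophilin gene AT2G21130 averaged -0.98 in gbf1, against 0.12 in wild type (adjusted p = 0.0184). RBL, known for a part in floral meristem termination, fell by 1.05 (adjusted p = 0.0175).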
